A study of Mus musculus with 8 samples.

Results

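The 10 genes described here mark macrophages, the resident phagocytes of tissues, and were chosen by symbol from the 55414 genes of the count table: Itgam, Cx3cr1, Csf1r, Mrc1, Cd68, Adgre1, Aif1, Trem2, Cd163 and Lyz2. They were chosen because Itgam and Cx3cr1 lay lower, and Mrc1 and other lineage genes higher, in Emb knockdown than in WT libraries. That contrast therefore describes them, and no test of it is given for them. The libraries held sorted colon cells labelled as enteric neurons, 4 from Emb knockdown mice and 4 from WT mice, all aged 4 weeks. Emb encodes embigin, a membrane glycoprotein that accompanies lactate transporters. Cells were stained for CD24 and CD56, about 250 were sorted into each tube, and a Smart-seq kit, which amplifies the RNA of very few cells, was used for the libraries. The sources used here do not give how Emb was lowered, the strain, or whether a tube held cells of 1 mouse only, so errors measure the spread between libraries, part of which may be technical.

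Macrophages of the gut wall lie beside enteric neurons and glia and depend on the CSF1 receptor for their survival. They sense complement, chemokines, sugars and lipids through surface receptors, few of which are exclusive to the lineage. Itgam encodes CD11b, an integrin alpha chain that reaches the surface paired with the beta chain encoded by Itgb2, and neutrophils, monocytes and natural killer cells carry it too. Cx3cr1 encodes the receptor for fractalkine. Mrc1 encodes the mannose receptor CD206, and Cd163 the scavenger receptor for haemoglobin bound to haptoglobin. Adgre1 encodes the adhesion receptor F4/80, Cd68 a lysosomal membrane glycoprotein, Aif1 the calcium-binding protein IBA1, Trem2 a lipid receptor that signals through the adaptor encoded by Tyrobp, and Lyz2 a lysozyme.

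Transcription of many myeloid genes depends on the factor PU.1, whose sites often, but not always, contain the letters GAGGAA. Windows at RefSeq start sites (GRCm38.p6) were looked at for 8 of the 10 genes. Csf1r and Adgre1 were not among them, so the count does not cover all 10. Those letters, on either strand, stood in the windows of 5 of these 8, from 250 bases before to 50 after the start. They stood in 28.3% of all 32851 such windows. Shown are the 250 bases before the start of the genes that lay lower in Emb knockdown in every library, and of Mrc1, which lay farthest the other way. They read 5′ to 3′ along the gene, with each match in capitals (GAGGAA on the gene's strand, TTCCTC where it lies on the other). The windows are Itgam on the plus strand at chr7:128062390-128062639, Cx3cr1 on the minus strand at chr9:120068297-120068546 and Mrc1 on the plus strand at chr2:14229164-14229413.
Itgam: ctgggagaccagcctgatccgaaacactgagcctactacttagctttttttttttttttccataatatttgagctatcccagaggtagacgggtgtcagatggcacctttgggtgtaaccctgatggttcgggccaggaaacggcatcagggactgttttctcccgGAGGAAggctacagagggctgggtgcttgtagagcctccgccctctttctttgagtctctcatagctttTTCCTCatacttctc
Cx3cr1: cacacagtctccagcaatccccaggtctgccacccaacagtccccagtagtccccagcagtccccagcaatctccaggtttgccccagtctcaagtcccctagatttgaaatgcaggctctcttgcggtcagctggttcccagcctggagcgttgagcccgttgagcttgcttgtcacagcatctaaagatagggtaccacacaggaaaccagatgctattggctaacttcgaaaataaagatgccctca
Mrc1: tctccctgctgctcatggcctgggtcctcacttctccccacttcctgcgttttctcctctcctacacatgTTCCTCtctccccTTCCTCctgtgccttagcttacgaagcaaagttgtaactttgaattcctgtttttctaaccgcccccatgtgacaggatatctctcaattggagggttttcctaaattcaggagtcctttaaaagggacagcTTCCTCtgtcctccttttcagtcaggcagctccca
The Itgam window held 1 match on each strand, the Mrc1 window 3 on the other strand, and the Cx3cr1 window 0. A match is a run of letters in this window and was not tested as a binding site.

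Total counts ranged from 2024372 to 2712754 in Emb knockdown and from 698930 to 954191 in WT. The ribosomal RNA gene Rn18s-rs5 took 29.2% to 42.5% of them in Emb knockdown and 3.55% to 13% in WT. Levels are given as CPM, counts scaled to library size, after TMM scaling, a trimmed-mean correction for library make-up. Emb itself had 5, 25, 3 and 5 counts in Emb knockdown replicates 1 to 4, against 4, 6, 22 and 16 in WT replicates 1 to 4. In CPM these were 3.33, 13.3, 1.62 and 3.13 in Emb knockdown, against 5.15, 6.90, 16.7 and 22.5 in WT. The groups overlapped through Emb knockdown replicate 2, and DESeq2 gave a log2 fold change of -1.27 ± 0.79 (SE). By edgeR it was -2.04 with library totals alone and -0.60 when scaled to the receptor genes (defined further on). Per length, Emb lay near the background of those genes, at 0.189 to 1.99 times in Emb knockdown and 0.435 to 2.15 times in WT. Beside the cell label stand 12 enteric neuron markers with a summed level of 217 to 501 CPM in Emb knockdown and 248 to 446 CPM in WT. Their median marker lay, per length, at 1.77 to 2.35 times the receptor-gene background in Emb knockdown and at 1.07 to 1.73 times in WT. Of 8 enteric glia markers 7 were tested, 6 higher and 1 lower in Emb knockdown, with a median log2 fold change of 0.83, and their median marker lay at 9.80 to 43.5 times that background in Emb knockdown and at 2.36 to 9.31 times in WT. In sorted mixtures, fewer cells of a type and less RNA per cell cannot be told apart.

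Itgam (ENSMUSG00000030786, GRCm38 chromosome 7, 128062640 to 128118491, plus strand) had 138, 261, 632 and 543 CPM in Emb knockdown replicates 1 to 4, against 5061, 5765, 1405 and 2970 CPM in WT replicates 1 to 4. Every Emb knockdown library lay below every WT library. The mean of Itgam was 393 ± 232 CPM in Emb knockdown and 3800 ± 1990 CPM in WT (SD, n = 4 each), 9.66-fold lower in Emb knockdown, and the log2 fold change was -3.27 ± 0.75 (SE). Cx3cr1 (ENSMUSG00000052336, chromosome 9, 119901616 to 120069879, minus strand) had 318, 682, 7.02 and 99.0 CPM in Emb knockdown replicates 1 to 4, against 1539, 894, 895 and 1278 CPM in WT replicates 1 to 4. The groups did not overlap here either, but the highest Emb knockdown library held 97.1 times the Cx3cr1 of the lowest, and the highest WT library 1.72 times. The mean of Cx3cr1 was 277 ± 300 CPM in Emb knockdown and 1151 ± 315 CPM in WT, with a log2 fold change of -2.06 ± 1.04. That value was -1.63 without Emb knockdown replicate 3, which held 13 counts of Cx3cr1, and became -2.99 when Emb knockdown replicate 2 was left out.

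Mrc1 and Adgre1 lay the other way. Mrc1 (ENSMUSG00000026712, chromosome 2, 14229392 to 14332057, plus strand) had 709, 207, 349 and 301 CPM in Emb knockdown replicates 1 to 4, against 29.6, 43.7, 28.1 and 70.3 CPM in WT replicates 1 to 4. Its mean of 391 ± 220 CPM in Emb knockdown was 9.11-fold that of 42.9 ± 19.5 CPM in WT, and the log2 fold change of Mrc1 was 3.19 ± 0.76. Adgre1 (ENSMUSG00000004730, chromosome 17, 57358691 to 57483527, plus strand) had 290, 266, 376 and 142 CPM in Emb knockdown replicates 1 to 4, against 84.9, 33.3, 23.6 and 103 CPM in WT replicates 1 to 4. Its mean was 269 ± 96.9 CPM in Emb knockdown and 61.1 ± 38.6 CPM in WT, with a log2 fold change of 2.14 ± 0.75. For both genes the lowest Emb knockdown library was above the highest WT library. In all, the groups did not overlap for 4 of the 10 genes, 2 in each direction, while over all 11353 genes tested the share was 8.28%, made up of 4.03% higher and 4.25% lower in Emb knockdown. The genes were chosen on this contrast, so nothing is read from that count.

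**Figure D1:**
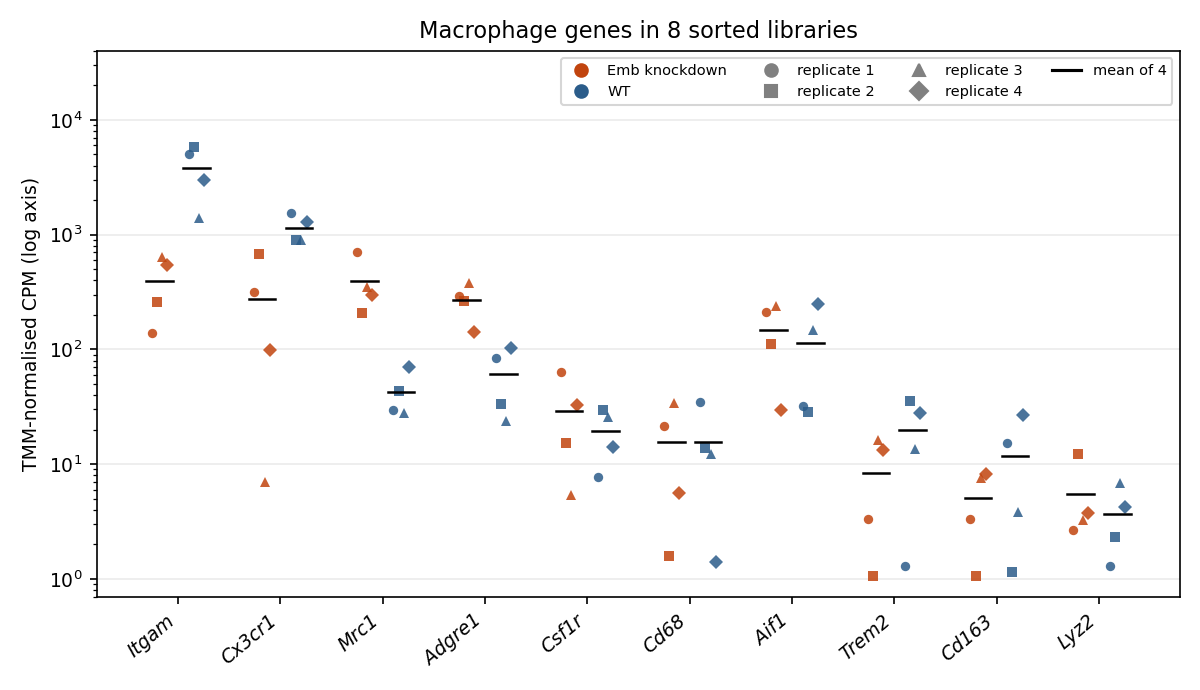
TMM-normalised CPM (log axis) of the 10 macrophage genes in each library, Emb knockdown left and WT right for each gene; symbols are replicates 1 to 4 and bars are means of 4. Itgam and Cx3cr1 lie lower and Mrc1 and Adgre1 lie higher in all 4 Emb knockdown libraries than in any WT library, while the groups of the other 6 genes overlap.

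Csf1r (ENSMUSG00000024621, chromosome 18, 61100598 to 61132149, plus strand), the receptor for the survival factors CSF1 and IL-34, had 63.3, 15.4, 5.40 and 32.6 CPM in Emb knockdown replicates 1 to 4, against 7.72, 29.9, 25.9 and 14.1 CPM in WT replicates 1 to 4. Its highest and its lowest library were both Emb knockdown, and the log2 fold change of Csf1r was 0.58 ± 0.77, or -0.15 without Emb knockdown replicate 1. Cd68 (ENSMUSG00000018774, chromosome 11, 69664213 to 69666153, minus strand) had 21.3, 1.59, 34.0 and 5.64 CPM in Emb knockdown replicates 1 to 4, against 34.7, 13.8, 12.2 and 1.41 CPM in WT replicates 1 to 4. Its means differed by far less than the spread between libraries, at 15.6 ± 14.9 CPM in Emb knockdown and 15.5 ± 13.9 CPM in WT (log2 fold change 0.01 ± 0.97). Aif1 (ENSMUSG00000024397, chromosome 17, 35170991 to 35176068, minus strand) had 211, 112, 239 and 29.4 CPM in Emb knockdown replicates 1 to 4, against 32.2, 28.7, 148 and 250 CPM in WT replicates 1 to 4. Both the highest and the lowest library of Aif1 were WT, and its log2 fold change was 0.37 ± 0.90, or 1.16 without WT replicate 4 and 0.04 with Emb knockdown replicate 3 left out.

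Trem2, Cd163 and Lyz2 were rare in every library. Trem2 (ENSMUSG00000023992, chromosome 17, 48346401 to 48354147, plus strand) had 5, 2, 30 and 21 counts in Emb knockdown replicates 1 to 4, against 1, 31, 18 and 20 counts in WT replicates 1 to 4, which is 8.44 ± 7.38 CPM in Emb knockdown and 19.7 ± 15.3 CPM in WT. Its log2 fold change was -1.21 ± 0.97, with the groups overlapping. Cd163 (ENSMUSG00000008845, chromosome 6, 124304656 to 124330527, plus strand) had 5, 2, 14 and 13 counts in Emb knockdown replicates 1 to 4, against 12, 1, 5 and 19 counts in WT replicates 1 to 4. Lyz2 (ENSMUSG00000069516, chromosome 10, 117277331 to 117282321, minus strand), a transcript abundant in macrophages, had 4, 23, 6 and 6 counts in Emb knockdown replicates 1 to 4, against 1, 2, 9 and 3 counts in WT replicates 1 to 4. Neither Cd163 nor Lyz2 passed the filter on low counts, so no fold change is given for them, and 8 of the 10 genes entered the fit. Lyz1, the near-identical copy of Lyz2 with which reads can be shared, had 4, 16, 4 and 5 counts in Emb knockdown and 1, 0, 17 and 1 in WT.

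Compared per length, the order of the genes differed between the groups. Counts per exonic kilobase were set against those of 1478 olfactory, vomeronasal and trace amine receptor genes in the same library, which serve as a measure of background because gut cells are not known to use them broadly. Itgam lay at 32.4, 53.8, 101 and 102 times that background in Emb knockdown replicates 1 to 4, and at 587, 775, 181 and 390 times in WT replicates 1 to 4. Cx3cr1 lay at 83.2, 157, 1.26 and 20.7 times in Emb knockdown and at 199, 134, 129 and 187 times in WT, so it came close to the background in 1 Emb knockdown library. Mrc1 lay at 33.6 to 131 times in Emb knockdown and at 2.71 to 7.29 times in WT, and Adgre1 at 41.1 to 106 times in Emb knockdown and 4.72 to 20.9 times in WT. Trem2, Cd163 and Csf1r each lay under the background in at least 1 library of each group. In mean CPM per kilobase over all exons the order in Emb knockdown was Aif1 (96.6), Adgre1 (82.9), Itgam (78.3), Mrc1 (61.41) and Cx3cr1 (61.38), and the ranges of neighbours in that order overlapped. In WT the order in mean CPM per kilobase was Itgam (756), Cx3cr1 (256), Aif1 (74.8), Adgre1 (18.9), Cd68 (12.4) and Mrc1 (6.74), and among these neighbours only the ranges of Cx3cr1 and Aif1 were apart.

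**Figure D2:**
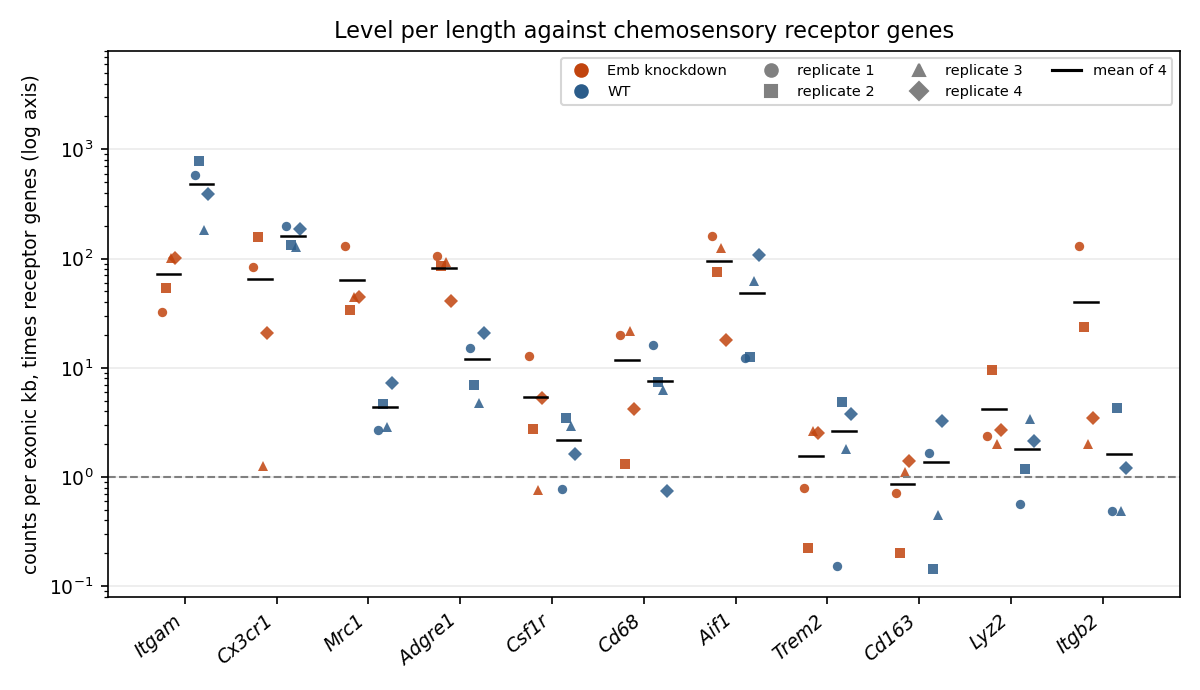
Counts per exonic kilobase divided by those of the chemosensory receptor genes in the same library (log axis), for the 10 macrophage genes and Itgb2, Emb knockdown left and WT right; symbols are replicates, bars are means of 4 and the dashed line marks the level of the receptor genes. Itgam lies at 181 to 775 times that level in WT, where Itgb2, the gene of its beta chain, lies at 0.485 to 4.32 times.

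Itgam and Cx3cr1 made up most of the macrophage counts in WT and a smaller share in Emb knockdown. Together they held 25.9%, 60.5%, 38.3% and 54.5% of the counts of the 10 genes in Emb knockdown replicates 1 to 4, against 97.0%, 97.2%, 89.8% and 89.5% in WT replicates 1 to 4. A ratio of genes within a library, taken here with 0.5 added to the numerator and to the denominator, does not depend on how libraries are scaled. Itgam divided by the sum of the 8 genes other than itself and Cx3cr1 was 0.106, 0.423, 0.614 and 1.01 in Emb knockdown replicates 1 to 4, against 24.4, 30.5, 5.36 and 5.96 in WT replicates 1 to 4. The mean log2 ratio was -1.29 ± 1.40 in Emb knockdown and 3.63 ± 1.32 in WT (SD, n = 4 each), a difference of -4.92 ± 0.96 (SE), or -4.28 without Emb knockdown replicate 1. Cx3cr1 divided by the same sum was 0.244, 1.11, 0.00708 and 0.185 in Emb knockdown replicates 1 to 4, against 7.41, 4.73, 3.42 and 2.57 in WT replicates 1 to 4. Its difference in mean log2 ratio was -4.93 ± 1.57, or -3.51 without Emb knockdown replicate 3, and -5.94 when Emb knockdown replicate 2 was left out. Itgam had 0.195 to 1.81 counts for each count of Mrc1 in Emb knockdown and 41.9 to 167 in WT.

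**Figure D3:**
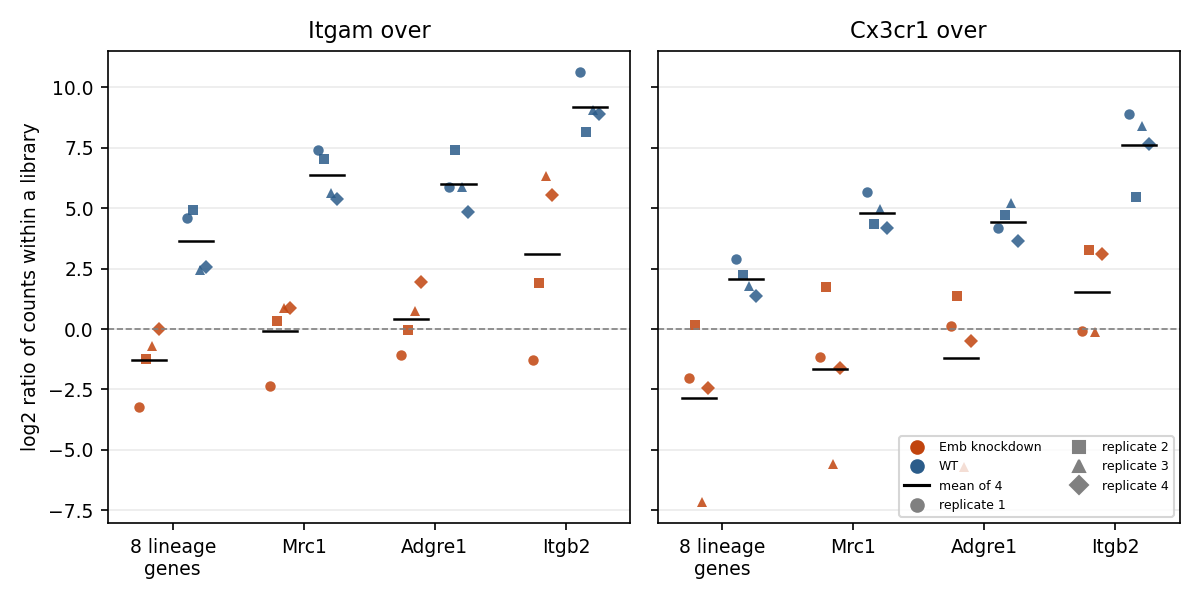
Log2 ratio of the counts of Itgam (left) and Cx3cr1 (right) to the sum of the 8 other genes, to Mrc1, to Adgre1 and to Itgb2 within each library; bars are means of 4 and the dashed line marks equal counts. For each divisor the 4 Emb knockdown libraries lie below the 4 WT libraries, and Emb knockdown replicate 3 lies lowest for Cx3cr1, nearly level with replicate 1 over Itgb2.

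Counts of the beta chain gene that pairs with CD11b did not go with those of Itgam. Itgb2 had 509, 132, 14 and 18 counts in Emb knockdown replicates 1 to 4, against 2, 17, 3 and 4 counts in WT replicates 1 to 4. Itgam had 0.407, 3.72, 80.7 and 46.8 counts for each count of Itgb2 in Emb knockdown, against 1574, 287, 528 and 470 in WT. Itgam thus exceeded its partner by far in every WT library, and lay below it in Emb knockdown replicate 1. The log2 fold change of Itgb2 was 3.82 ± 1.28 (edgeR adjusted p = 0.304, DESeq2 Wald adjusted p = 0.00922), with 2 of 4 Emb knockdown libraries above every WT library. Without either of those libraries Itgb2 did not pass the filter on low counts, and without WT replicate 2 its log2 fold change was 5.04. Of the 15 leukocyte integrins, partners and counter-receptors looked at, 11 were tested, 7 higher and 4 lower in Emb knockdown, with a median log2 fold change of 0.32 against 0.04 for all genes tested, and 0 passed an adjusted p of 0.05 by edgeR. DESeq2 called 2 of them, Itgb2 and the adhesion receptor gene Vcam1, both higher. The median was -0.06 without Emb knockdown replicate 1 and -0.01 with replicate 2 of that group left out. Over all genes tested 0% passed by edgeR's quasi-likelihood test, and the DESeq2 Wald test called 6.02%. Without adjustment, 13.3% had a p under 0.05, of which 8.64% lay higher and 4.64% lower in Emb knockdown as shares of all genes. The relatives of Itgam that also pair with Itgb2 were rare: Itgax had 20 to 36 counts in Emb knockdown and 0 to 27 in WT, and Itgad and Itgal had at most 38 counts in any library.

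Overlapping genes bear on what was counted. In the annotation, 3450 of the 5024 exonic bases of Itgam (68.7%) also belong to Gm49368 on the same strand, which had 2 to 17 counts in Emb knockdown and 0 to 7 in WT. The sources used here do not give how shared bases were counted, so the Itgam count may come from all of its exons or from the unshared 1574 bases. Over the unshared bases alone, Itgam would have a mean level of 250 CPM per kilobase in Emb knockdown and 2414 CPM per kilobase in WT, first in both groups, and would lie at 103 to 324 times the receptor-gene background in Emb knockdown and at 579 to 2472 times in WT. The exons of Cx3cr1 share 78 bases with the antisense gene Gm33858, and those of Csf1r share 873 bases with Hmgxb3 on the opposite strand. Hmgxb3 had 2070 counts in WT replicate 2, where Csf1r had 26, and 22 to 77 counts in the other libraries. Whether reads of Hmgxb3 entered the Csf1r count was not tested, and the strand setting is not given.

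Genes that act with the other receptors were mostly counted rarely. Cx3cl1, which encodes fractalkine, the ligand of CX3CR1, had 14, 31, 28 and 14 counts in Emb knockdown and 14, 1, 13 and 4 in WT (log2 fold change 0.52 ± 0.75, edgeR adjusted p = 0.808, groups overlapping). Csf1, a ligand of the CSF1 receptor, had a log2 fold change of 0.09 ± 0.88 (edgeR adjusted p = 0.978), and Il34, the other ligand, was too rare to be tested. Tyrobp, the adaptor of TREM2, had 67, 13, 2 and 15 counts in Emb knockdown and 5, 61, 3 and 0 in WT, so its groups overlapped. Of the 10 genes of TREM2 and ITAM signalling 6 were tested, 3 higher and 3 lower, with a median log2 fold change of -0.02, and 0 passed the adjusted p by edgeR and 1 by DESeq2. That gene was Apoe, an apolipoprotein that TREM2 binds, with 831 ± 471 CPM in Emb knockdown and 26.7 ± 21.0 CPM in WT, with every Emb knockdown library above every WT library (log2 fold change 4.95 ± 0.93, edgeR adjusted p = 0.186, DESeq2 Wald adjusted p = 1.17e-08); the log2 fold change was 5.73 without WT replicate 2. Of 13 myeloid transcription factors 10 were tested, 9 higher and 1 lower, with a median of 0.30, 0 past the adjusted p by edgeR and 1 by DESeq2, Id3, an inhibitor of helix-loop-helix factors. Spi1, the gene of PU.1, had 31, 8, 24 and 17 counts in Emb knockdown and 12, 4, 25 and 5 in WT (log2 fold change 0.06 ± 0.70, edgeR adjusted p = 0.984). Beside the calls in these lists, DESeq2 called 6.02% of all genes tested.

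Of other genes shared by most macrophages, those common enough to be tested lay on the side of Mrc1 and Adgre1. Of 20 such genes 13 passed the filter on low counts, and these 13 were higher in Emb knockdown, with a median log2 fold change of 2.08. No direction is given for the rest, which were too rare. That filter can keep a gene through the group where it is high alone, which favours genes that differ, so the count is a description. By edgeR 8 of the 13 had an unadjusted p under 0.05, and 0 passed the adjusted p. Over all genes tested, 8.64% lay higher at that unadjusted p. DESeq2 called 6 of the 13, and 6.02% of all genes tested. Lgmn, a lysosomal protease, had 502 ± 591 CPM in Emb knockdown and 19.6 ± 8.64 CPM in WT, with the groups apart (log2 fold change 4.67 ± 0.99, edgeR adjusted p = 0.275, DESeq2 Wald adjusted p = 2.40e-06), or 3.42 without Emb knockdown replicate 1. The 3 chains of complement C1q, which assemble into 1 molecule, were counted unequally. C1qa had 2812 to 5233 CPM in Emb knockdown and 510 to 2327 CPM in WT. C1qb had 27.3 to 150 CPM in Emb knockdown and 2.81 to 27.6 CPM in WT. C1qc had 1.25 to 391 CPM in Emb knockdown and 1.52 to 15.5 CPM in WT. Ptprc, which encodes CD45 of all leukocytes, lay at 0.810 to 1.71 times the receptor-gene background in Emb knockdown and at 0.287 to 1.40 times in WT (log2 fold change 0.16 ± 0.62, edgeR adjusted p = 0.948). Of 18 scavenger receptor and resident macrophage genes 6 were tested, 4 higher and 2 lower, with a median of 0.86, or -0.30 without Emb knockdown replicate 1, and 0 passed by edgeR or DESeq2.

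Markers of other cells, some of which carry CD11b, were set beside these values. The 18 neutrophil genes together held 151 to 302 CPM in Emb knockdown and 75.9 to 315 CPM in WT, and 6 of them were tested, 4 higher and 2 lower, with 0 past the adjusted p by edgeR and 1 by DESeq2. That gene was Hp, which encodes haptoglobin and had 7.21 ± 1.89 CPM in Emb knockdown and 65.5 ± 47.6 CPM in WT, with every Emb knockdown library below every WT library (log2 fold change -3.17 ± 0.70, edgeR adjusted p = 0.275, DESeq2 Wald adjusted p = 0.000105). The 12 natural killer cell genes held 43.5 to 57.3 CPM in Emb knockdown and 14.1 to 82.9 CPM in WT. The 11 monocyte genes held 333 to 1793 CPM in Emb knockdown and 140 to 324 CPM in WT, and of the 8 tested 5 were higher and 3 lower, with a median log2 fold change of 0.23, 0 past the adjusted p by edgeR and 1 by DESeq2. The lower ones included Ccr2, a chemokine receptor of monocytes (log2 fold change -1.04 ± 0.65, edgeR adjusted p = 0.504), and F10, which encodes coagulation factor X (-2.09 ± 0.95, edgeR adjusted p = 0.375), and the groups overlapped for both. Highest on average over the 8 libraries was the immediate early gene Nr4a1, which had 2329, 492, 1712 and 274 counts in Emb knockdown replicates 1 to 4, against 4, 2, 2 and 0 in WT replicates 1 to 4 (edgeR adjusted p = 0.121, DESeq2 Wald adjusted p = 5.41e-14). The 8 microglia-type genes held 159 to 692 CPM in Emb knockdown and 99.8 to 171 CPM in WT, the highest being Sparc, which fibroblasts also express. The 10 dendritic cell genes held 191 to 798 CPM in Emb knockdown and 109 to 222 CPM in WT, and the 8 T cell genes 72.1 to 97.6 CPM in Emb knockdown and 60.9 to 128 CPM in WT. The 6 B cell genes held 30.7 to 654 CPM in Emb knockdown and 21.9 to 54.8 CPM in WT. The top B cell value came with 713 counts of Jchain, a gene of antibody-secreting cells, in Emb knockdown replicate 1, the library with the most Mrc1, Csf1r and Itgb2. The part of any of these cells in the values of the macrophage genes was not tested. Over all genes tested, 0% passed the adjusted p by edgeR and DESeq2 called 6.02%.

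Among the genes searched, those whose profiles were most like those of Itgam, Cx3cr1, Mrc1 and Csf1r were in none of the immune lists. Only tested genes with a proper symbol and a mean log2 CPM of at least 1 were searched. Likeness was the Pearson correlation of log2 CPM over the 8 libraries. For Itgam they were Kcnd2, a potassium channel subunit (r = 0.966), Slc17a9, a vesicular nucleotide transporter (0.965), and Tor2a (0.962). For Cx3cr1 they were Upp2, a uridine phosphorylase (0.961), Pex7, a peroxisomal import receptor (0.930), and Kics2 (0.918). For Mrc1 they were Etf1, a translation release factor (0.972), Krtcap2 (0.971) and Sema4a, a semaphorin (0.969). For Csf1r they were Slc27a1, a fatty acid transporter (0.965), Zfp354c (0.925) and Zfp266 (0.911). Some of these genes were rare, such as Tor2a with 1.33 CPM in Emb knockdown replicate 1 and Upp2 with 2.16 CPM in Emb knockdown replicate 3. Libraries of a group share depth and make-up, so these correlations describe the 8 libraries alone.

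Scaling moved all genes together and did not change which way Itgam, Cx3cr1, Mrc1 and Adgre1 lay. Over all genes tested, the median log2 fold change was 0.04 with TMM factors, -0.67 with library totals alone and 0.65 when libraries were scaled to the receptor genes. Relative to these medians, Itgam lay at -3.31, -3.12 and -3.39. Cx3cr1 lay at -2.10, -2.22 and -1.96, Mrc1 at 3.15, 3.12 and 3.21, and Adgre1 at 2.10, 2.21 and 2.12 in the same order.

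**Figure D4:**
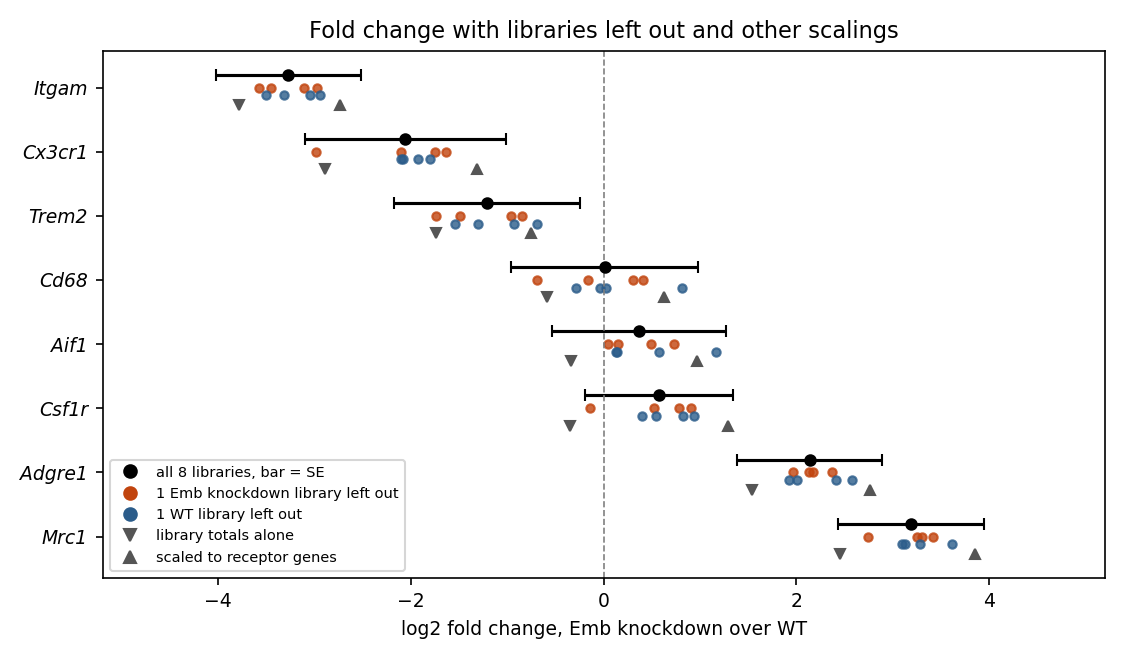
Log2 fold change, Emb knockdown over WT, of the 8 macrophage genes in the fit: with all 8 libraries (black, bar = SE), with 1 library left out (coloured by the group it came from), and with 2 other scalings (triangles). Itgam, Cx3cr1 and Trem2 stay below 0 and Adgre1 and Mrc1 above it at every point, while Cd68, Aif1 and Csf1r cross 0.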

How the data were processed

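The authors deposited 1 table of raw counts per gene, whole numbers with no normalization, for 8 libraries. Per the submitters' processing notes, the tools included cutadapt and the build was mm10. The sources used here do not give the aligner, the counting tool or the strand setting. Positions and exon lengths came from GENCODE M21 (GRCm38), and start-site sequences from RefSeq. The members and lists were chosen with earlier results of these data known.

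Counts were fitted with edgeR 4.0.16 in R 4.3.3 (filterByExpr defaults with a minimum count of 10 and total of 15, TMM factors, robust quasi-likelihood, group as the only term), with Benjamini-Hochberg adjustment over the 11353 genes tested and a threshold of 0.05. Standard errors came from the fold change and the F statistic. Log2 CPM used a prior count of 2, and within-library ratios added 0.5 counts to each term. The fit was tested on simulated data. Alternatives were DESeq2 1.42.0, limma 3.58.1 (voom), other scalings, thinning to 608076 counts outside Rn18s-rs5, no filter, a replicate block and leaving out each library. Amplified reads are not independent molecules, and WT libraries were shallower.

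Named are all 10 genes, Emb, up to 4 genes of each list with the smallest p and 2 with the highest mean CPM, the relatives Itgax, Itgad, Itgal and Lyz1, and the 3 most alike genes of 4 members; not every gene so chosen is printed. C1qb, Il34, Spi1, Ptprc and the overlapping genes were named after their values were seen.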

Additional observations from a re-analysis of the deposited data

How the results depend on the processing

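No gene passed the adjusted p by edgeR in the fit to all 8 libraries (1508 at an unadjusted p under 0.05) or with any library left out (range 0 to 0). The count was 2 with library totals alone, 910 with no filter on low counts and 683 by the DESeq2 Wald test, and limma voom called 0; the cause was not tested. The difference in mean log2 ratio of Itgam to the 8 lineage genes ran from -5.36 to -4.28 with a library left out, and was -6.43 over Mrc1 alone. That of Cx3cr1 ran from -5.94 to -3.51. Itgam, Cx3cr1, Mrc1, Adgre1 and Trem2 kept their direction under every alternative. Csf1r turned to -0.35 when scaled by library totals, and ran from -0.15 to 0.94 with a library left out (-0.15 without Emb knockdown replicate 1), and Aif1 to -0.34 with library totals alone. Cd68, at 0.01 with all libraries, turned to -0.58 with library totals alone, -0.10 with the replicate block, -0.29 by limma voom, -0.065 after thinning, and ran from -0.69 to 0.82 with a library left out, below 0 without Emb knockdown replicate 1 (-0.17) or 3 (-0.69) or WT replicate 3 (-0.04) or 4 (-0.29). With the replicate block, 0 genes passed and 918 had an unadjusted p under 0.05; Cx3cr1 lay at -3.15. Same-numbered libraries correlated at 0.0113 to 0.0337 in their deviations from the group means, and not every library correlated best with its own number, so the numbers were not taken as pairs. Without the filter on low counts, Cd163 lay at -0.95 ± 1.08 and Lyz2 at 0.78 ± 1.29.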
